A study of Arabidopsis thaliana with 8 samples.

Results

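OSM34 and CHI are a pair of Arabidopsis thaliana genes for defence-type proteins, and both gave a higher signal in the rosettes of the yda-2 mutant than in those of WT plants. OSM34 (AT4G11650) encodes an osmotin of the thaumatin-like family, and CHI (AT2G43570) encodes a putative chitinase. They were found as the probe sets that the array annotation gives to 1 of these genes alone. Each gene has 1 such probe set, 16914_s_at for OSM34 and 17840_at for CHI, out of 8297 probe sets in the table. Both passed the filter on low signal, a mean of at least 100 over all 8 arrays, which 4788 probe sets passed. The genes were selected on measured values, since their signal differed between the genotypes in these arrays. Their genotype difference is therefore described here without a test.

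The arrays compared 4 yda-2 and 4 WT samples. Plants were grown in soil at 22 °C in constant light, and RNA came from the aerial parts of rosettes that had not yet bolted. The yda-2 plants carry a mutant allele of YDA (YODA), whose product is a kinase at the top of a mitogen-activated protein kinase cascade and limits the number of stomata, and WT plants are wild type. The labels do not describe the molecular lesion of the allele, the accession or the number of plants per array. Per the labels, the replicates were independent biological replicates grown and harvested at different times. Whether arrays of the same replicate number share a harvest is not stated, and such arrays are called a pair here. YDA itself was not analysed here, and the genotypes are taken from the labels alone.

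Osmotins and other thaumatin-like proteins form the PR-5 class of pathogenesis-related proteins, which accumulate in the vacuole or outside the cell. Tobacco osmotin was named for its accumulation in cells adapted to high salt, and it acts against fungi. Plant chitinases cleave chitin, a polymer of fungal cell walls and insect cuticles, and several of them are pathogenesis-related proteins too. In leaves, genes of both kinds are known to respond to pathogens, wounding, abscisic acid, ethylene or senescence, depending on the gene.

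The arrays differed in range as well as in genotype. The highest signal on an array lay between 22519 and 33920 in replicates 1 and 2 and between 6226 and 10422 in replicates 3 and 4, with both genotypes in each set. WT replicate 2 stood apart, with a mean correlation of 0.819 with the other arrays across probe sets, against 0.873 to 0.903 for the rest. The 9 probe sets of bacterial and phage controls, which are added to the sample, had a mean log2 difference of -0.39 and were lower in yda-2 in 4 of 4 pairs. The ubiquitin 3′ over 5′ signal ratio, a sign of RNA integrity, differed by 0.59 and 0.66 on the log2 scale in pairs 1 and 2 and by 0.0071 and 0.093 in pairs 3 and 4, higher in yda-2 each time, with a mean of 0.34. The part of these controls in the results below was not tested. The tissue label was checked on marker genes. All 5 named green tissue markers passed the filter, with mean signals from 10470 (LHB1B2) to 12162 (PSBW). Their summed signal ran from 11831 to 107072 in yda-2 arrays and from 10011 to 100664 in WT arrays, and was lower in replicates 3 and 4 than in replicates 1 and 2 in both genotypes. The range differed between markers. LHCB4.1 ran from 203.0 to 27755 in yda-2 arrays and from 186.4 to 24004 in WT arrays. LHB1B2 ran from 4421 to 17888 in yda-2 arrays and from 4187 to 16313 in WT arrays. The 1 root marker with a named probe set, the peroxidase gene AT1G30870, summed to 11.0 to 50.7 in yda-2 arrays and 11.0 to 93.9 in WT arrays and was below the filter. None of the floral markers had a named probe set.

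OSM34 had signals of 497.5, 472.0, 556.0 and 791.1 in yda-2 replicates 1 to 4, against 233.3, 27.6, 136.5 and 105.6 in WT replicates 1 to 4. The genotypes did not overlap, and the lowest yda-2 array stood 238.7 signal units above the highest WT array. The mean was 579.1 ± 145.6 in yda-2 and 125.8 ± 85.1 in WT (SD, n = 4 each), a ratio of mean signals of 4.61. On the scale of log2(signal + 16), used for all log2 values here, the difference was 2.29 (SE 0.46). OSM34 was thus at 472.0 or more in every yda-2 array. Its WT range was widened by WT replicate 2, at 27.6, while the other WT arrays lay between 105.6 and 233.3. The highest array was 1.68 times the lowest among yda-2 samples and 8.45 times the lowest among WT samples. The SD of the log2 signal was 0.33 in yda-2 and 1.06 in WT, with WT replicate 2 included.

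The size of the OSM34 difference depended on the pair. In pairs 1 to 4 the yda-2 signal was 2.13, 17.1, 4.07 and 7.49 times the WT signal, and the log2 differences were 1.04, 3.48, 1.91 and 2.73. Pair 2, with the largest value, holds the WT array that stood apart, and its WT signal of 27.6 lies near the pseudocount of 16. Detection calls were not used here, so whether that signal exceeds background is not known. Without WT replicate 2 the log2 difference was 1.81, and without WT replicate 1, the array with the highest WT signal, it was 2.65.

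CHI had signals of 774.5, 1106.0, 1037.3 and 1336.2 in yda-2 replicates 1 to 4, against 267.0, 325.4, 455.6 and 496.0 in WT replicates 1 to 4. The groups did not overlap here either, with a gap of 278.5 signal units between the lowest yda-2 and the highest WT array. The mean was 1064 ± 231 in yda-2 and 386.0 ± 107.7 in WT (SD, n = 4 each), a ratio of mean signals of 2.76, and the log2 difference was 1.44 (SE 0.27). CHI differed by a similar factor in each pair. The yda-2 signal was 2.90, 3.40, 2.28 and 2.69 times the WT signal in pairs 1 to 4, and the SD of the 4 log2 differences was 0.23, against 1.05 for OSM34. Its spread was also alike in both genotypes, with an SD of the log2 signal of 0.32 in yda-2 and 0.40 in WT.

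For background, 2 of the 4788 tested probe sets, or 0.0418%, passed an adjusted p of 0.05 between the genotypes in limma, both higher in yda-2. With the replicate pairs as a block the count was 9, or 0.188%. No call is given for OSM34 or CHI from either fit, since this contrast chose them. The 2 probe sets are not to be taken as these genes. All yda-2 arrays lay above all WT arrays in 1.73% of tested probe sets, and in 9.44% the yda-2 signal was the higher one in each of the 4 pairs. OSM34 and CHI meet both conditions, which their selection on this contrast favours, so nothing is read from that. In RNA from whole rosettes, a larger share of cells expressing a gene and more RNA per cell cannot be told apart.

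**Figure D1:**
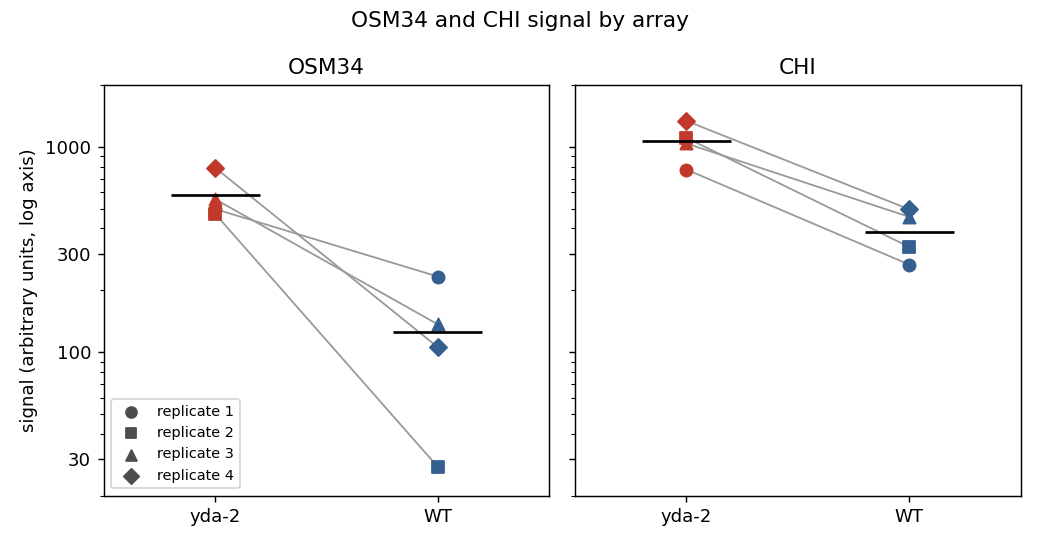
Signal of OSM34 (left) and CHI (right) on each array, on a log axis in arbitrary units. Each marker is 1 array, grey lines join arrays of the same replicate number, and black bars are the means of 4 arrays. OSM34 lies between 472.0 and 791.1 in yda-2 and between 27.6 and 233.3 in WT, and CHI between 774.5 and 1336.2 in yda-2 and between 267.0 and 496.0 in WT.

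The size of the difference was also computed within each array set and under other scalings. Within replicates 1 and 2 the log2 difference was 2.26 for OSM34 and 1.60 for CHI, and within replicates 3 and 4 it was 2.32 and 1.28. After median centring of the arrays it was 2.25 for OSM34 and 1.39 for CHI, and after quantile normalization 2.01 and 1.43. The choice of genes whose groups do not overlap fixes the direction of the values within array sets, so only their size is described.

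**Figure D2:**
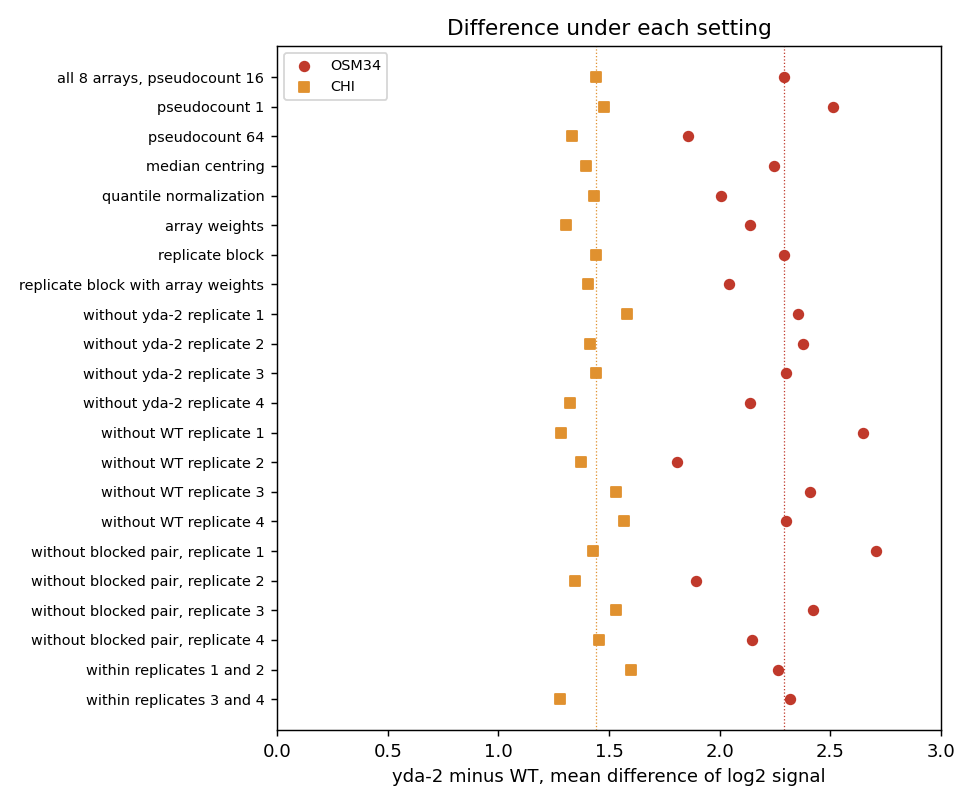
Difference between yda-2 and WT in mean log2 signal for OSM34 (circles) and CHI (squares), with 1 row per setting; dotted lines mark the values from all 8 arrays at a pseudocount of 16, 2.29 for OSM34 and 1.44 for CHI. CHI lies between 1.28 and 1.60 and OSM34 between 1.81 and 2.71.

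Whether the genes also varied between replicate numbers is a contrast other than that between genotypes, but it is not free of their choice. It shares its residual error with the genotype contrast. A choice of genes whose groups do not overlap also disfavours large differences between replicates. Neither gene passed a test of differences between replicate numbers with genotype in the fit (limma, moderated F test over 3 coefficients). The F value was 2.43 for OSM34 (adjusted p = 0.302) and 3.21 for CHI (adjusted p = 0.224). In the same test 8.29% of the tested probe sets passed. For CHI the array of replicate 1 was the lowest and that of replicate 4 the highest in both genotypes. The mean log2 signal of the pair was 8.89 in replicate 1 and 9.70 in replicate 4. OSM34 was lowest in replicate 2 in both genotypes, with a pair mean of 7.19 against 8.21 to 8.48 in the others, and highest in replicate 4 in yda-2 and in replicate 1 in WT.

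Within a genotype, the genes deviated from their means in opposite directions in WT replicate 1 and yda-2 replicate 2. In each of the other arrays both lay on the same side of their means. In WT replicate 1 OSM34 was 1.07 above its WT mean on the log2 scale while CHI was at -0.47. In WT replicate 2 OSM34 was at -1.45 and CHI at -0.20. In yda-2 replicate 2 OSM34 was at -0.26 and CHI at 0.08. In WT replicate 3 they were at 0.36 and 0.27. In yda-2 replicate 4 both were above their mean, by 0.47 for OSM34 and 0.35 for CHI. Over the 8 arrays, the correlation of the deviations of OSM34 and CHI from their genotype means was 0.068. That value includes WT replicate 1, with large deviations of opposite sign, so it does not show that the genes vary independently.

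**Figure D3:**
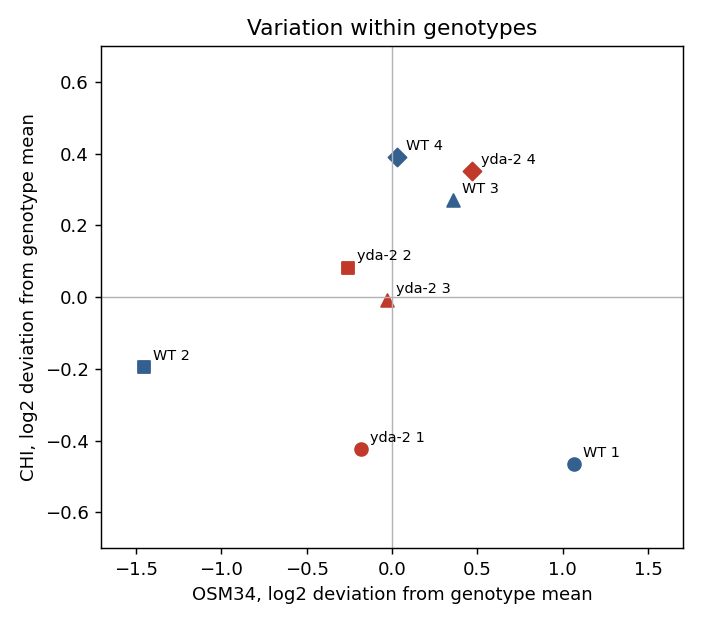
Deviation of each array from the mean of its genotype, in log2 units, for OSM34 (x axis) and CHI (y axis); colours mark the genotype and shapes the replicate number. WT replicates 1 and 2 lie at the far ends for OSM34, at 1.07 and -1.45, while CHI stays between -0.47 and 0.39.

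Over all 8 arrays the correlation of the log2 signals of OSM34 and CHI was 0.802, a value that includes the genotype difference for which both were chosen, against 0.068 once the genotype means were removed. By the correlation over all 8 arrays, CHI ranked 46 in likeness to OSM34 among the 1922 other genes with a tested, singly named probe set. OSM34 ranked 23 in likeness to CHI. The 5 genes nearest to OSM34 were AT4G37520, a class III peroxidase gene, at r = 0.942, AT1G09500, a cinnamyl alcohol dehydrogenase-like reductase gene, at 0.895, AT3G47800, a galactose mutarotase-like gene, at 0.893, AT2G31560 at 0.889 and the protein kinase gene AT4G33080 at 0.889. The 5 nearest to CHI were the glycine-rich protein gene AT2G05540 at r = 0.944, AT2G07000 at 0.914, scpl31, a serine carboxypeptidase-like gene, at 0.885, the GASA family gene AT1G22690 at 0.875 and AT2G38870, a protease inhibitor gene of the potato inhibitor I type, at 0.874. None of the nearest genes was shared by OSM34 and CHI. These values describe 8 arrays, picked as the highest of many, and the points share the replicate numbers and the array sets. They also include the genotype difference. With the genotype means removed, r was 0.65 (AT1G09500) to 0.864 (AT3G47800) for the genes nearest to OSM34. For those nearest to CHI it was 0.273 (AT2G38870) to 0.815 (AT2G07000).

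CHI stands in a row of chitinase genes. In the gene table of assembly TAIR10.1, used for names and gene order alone, the 5 protein-coding genes after it, AT2G43580 to AT2G43620, were all on the chitinase list used here, and each has a named probe set. Of the 5, 3 passed the filter on low signal. AT2G43620 had signals of 232.9, 278.7, 582.6 and 507.6 in yda-2 replicates 1 to 4, against 213.4, 273.3, 201.9 and 102.5 in WT replicates 1 to 4. Its groups overlapped, with nearly equal signals in pairs 1 and 2 and larger differences in pairs 3 and 4. The log2 difference was 0.94 (SE 0.37) and did not pass over all probe sets (limma, adjusted p = 0.9999, and 0.621 with the block).

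AT2G43610 had signals of 174.9, 177.7, 110.6 and 126.6 in yda-2 replicates 1 to 4, against 152.1, 79.4, 69.0 and 60.9 in WT replicates 1 to 4. It was higher in yda-2 in 4 of 4 pairs with overlapping groups, and its log2 difference of 0.67 (SE 0.36) did not pass (limma, adjusted p = 0.9999, and 0.716 with the block). AT2G43590 went opposite ways in the array sets by its brighter probe set. It had signals of 41.5, 25.4, 1230.0 and 298.6 in yda-2 replicates 1 to 4, against 179.8, 91.8, 348.9 and 113.2 in WT replicates 1 to 4. The log2 difference was -1.77 and -1.38 in pairs 1 and 2 and 1.77 and 1.28 in pairs 3 and 4, with a mean of -0.02 (SE 0.91), which turned to 0.17 with a pseudocount of 64. The second probe set of AT2G43590, 13153_r_at, had a mean log2 difference of -0.22. Its differences in pairs 1 to 4 were 0.04, -2.21, 1.10 and 0.18, so it did not show the same split.

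The 2 remaining genes of the row were too dim to be tested. AT2G43580 had 32.9, 170.8, 8.2 and 33.9 in yda-2 replicates 1 to 4, against 6.6, 18.7, 2.0 and 7.7 in WT replicates 1 to 4, higher in yda-2 in each pair. AT2G43600 had 7.4, 15.1, 2.6 and 4.4 in yda-2 replicates 1 to 4, against 24.9, 79.0, 24.9 and 38.1 in WT replicates 1 to 4, lower in yda-2 in each pair. A signal of this size has no detection call here. On the other side of CHI, 4 of the 5 nearest protein-coding genes were tested, and their log2 differences lay between -0.08 (AT2G43550) and 0.20 (AT2G43530), against 1.44 for CHI. Around OSM34, 2 of the 10 nearest genes were tested, AT4G11670 at -0.01 and AT4G11680 at 0.04. Whether probes for the chitinases bind each other's transcripts, or those of 16914_s_at bind transcripts of similar thaumatin-like genes, was not tested.

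**Figure D4:**
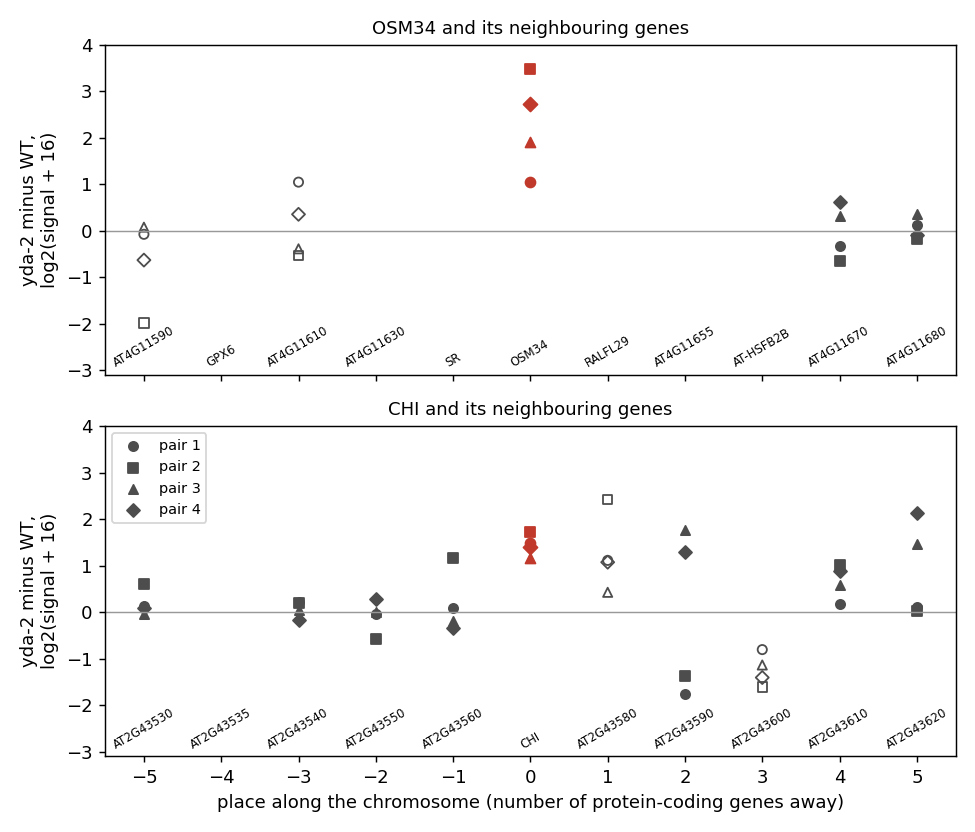
Difference between yda-2 and WT in log2(signal + 16) for OSM34 (upper panel) and CHI (lower panel) and for the 5 protein-coding genes on each side, in chromosome order and not to scale. Each marker is 1 replicate pair, open markers are genes below the filter on low signal, and places without markers have no named probe set. CHI lies between 1.16 and 1.72 in the 4 pairs, AT2G43610 between 0.18 and 1.02, and AT2G43590 between -1.77 and 1.77.

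The other thaumatin-like genes had small differences, mostly below 0, where that of OSM34 was 2.29. Of 22 further genes of the family, 10 have a named probe set and 6 were tested. None of the 6 passed in limma without or with the block, and none had an unadjusted p under 0.05 in either fit. Their median log2 difference was -0.21, against 0.02 over all tested probe sets, with 1 gene above 0 and 5 below. AT2G28790 averaged 1293 ± 43 in yda-2 and 1659 ± 257 in WT (SD, n = 4 each), a log2 difference of -0.34. All its yda-2 arrays lay below all WT arrays, as in 0.647% of tested probe sets. The gap was narrow, from 1353.2 in the highest yda-2 array to 1357.4 in the lowest WT array. AT4G38670 was at 0.47, higher in yda-2 in 4 of 4 pairs, and ATLP-1, AT4G36010, AT4G38660 and AT1G75800 were at -0.18, -0.25, -0.23 and -0.09. AT4G36010 turned to 0.40 without yda-2 replicate 2 and to 0.32 without WT replicate 1. PR5, a common marker of salicylic acid responses, was not analysed here.

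Of 23 further chitinase and chitinase-like genes, 15 have a named probe set and 4 were tested, with a median log2 difference of 0.32, 2 above 0 and 2 below. None passed without or with the block, and 1, AT2G43620, had an unadjusted p under 0.05 in both fits. Beside the genes of the row, AT4G01700 averaged 265.8 ± 54.0 in yda-2 and 276.6 ± 65.3 in WT (SD, n = 4 each), a log2 difference of -0.05. The other 11 with a named probe set were too dim to be tested, among them ChiC, a chitinase of class V.

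Among 27 other secreted or vacuolar defence proteins, 3 of 8 with a named probe set were tested, and none passed without or with the block. AT4G16260 encodes a probable beta-1,3-glucanase, an enzyme that cleaves glucans of fungal walls and of callose. It had signals of 323.4, 429.6, 571.8 and 927.1 in yda-2 replicates 1 to 4, against 456.1, 178.4, 212.5 and 97.0 in WT replicates 1 to 4. It was higher in yda-2 in 3 of 4 pairs, and WT replicate 1 lay within the range of yda-2. Its log2 difference of 1.29 (SE 0.44) was the largest of the 20 listed genes tested and did not pass (limma, adjusted p = 0.9999, and 0.531 with the block). Without pair 4 it was 0.69. The defensin gene LCR68 and the thionin gene THI2.1 were at -0.19 and 0.03. The sign of THI2.1 turned under median centring, at -0.01, and under quantile normalization, at -0.33, and its 2 other probe sets were at 0.07 and -0.96, the last one below the filter.

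The array gave few measured genes for the hormone and stress pathways that act on osmotins and chitinases. WRKY53, a transcription factor gene of the salicylic acid and senescence lists, was at 0.05, and at -0.02 after quantile normalization. EIN3, which encodes a transcription factor of ethylene signalling, averaged 3864 ± 957 in yda-2 and 4898 ± 285 in WT (SD, n = 4 each), a log2 difference of -0.38. All its yda-2 arrays lay below all WT arrays, as in 0.647% of tested probe sets, with 4597.8 in the highest yda-2 array and 4654.8 in the lowest WT array. The difference was -0.94 in pair 1 and -0.056 to -0.31 in the other pairs. Without yda-2 replicate 1 it was -0.18, and after quantile normalization -0.25. Of the 24 listed osmotic stress and abscisic acid genes, 3 were tested. COR15B was at -1.24, KIN2 at -0.47 and COR47 at 0.09 (-0.05 for its second probe set). A relation of the OSM34 difference to these pathways was not tested. KIN2 was at -0.11 after quantile normalization and at -0.24 without WT replicate 2. The senescence regulator WRKY6 was at 0.71, higher in yda-2 in 4 of 4 pairs, and the tryptophan pathway gene AT2G04400 was at 0.26.

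In all, the 8 defence and stress lists named 163 genes, of which 42 have a named probe set and 20 were tested. In limma 0 of the 20 passed without the block, where 0.0418% of all tested probe sets passed, and 0 with it, where 0.188% did. At an unadjusted p under 0.05 there were 3 without the block, against 3.22% of all tested probe sets, and 5 with it, against 7.1%. With array weights and the block 1 passed, COR15B (adjusted p = 0.00465), which was lower in yda-2 in 4 of 4 pairs. The median log2 difference of the 20 genes was -0.03, with 9 above 0 and 11 below, against 0.02 over all tested probe sets. Of the 20, 0 had all yda-2 arrays above all WT arrays, against 1.73% of all tested probe sets, and 2, AT2G28790 and EIN3, had all below, against 0.647%.

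**Figure D5:**
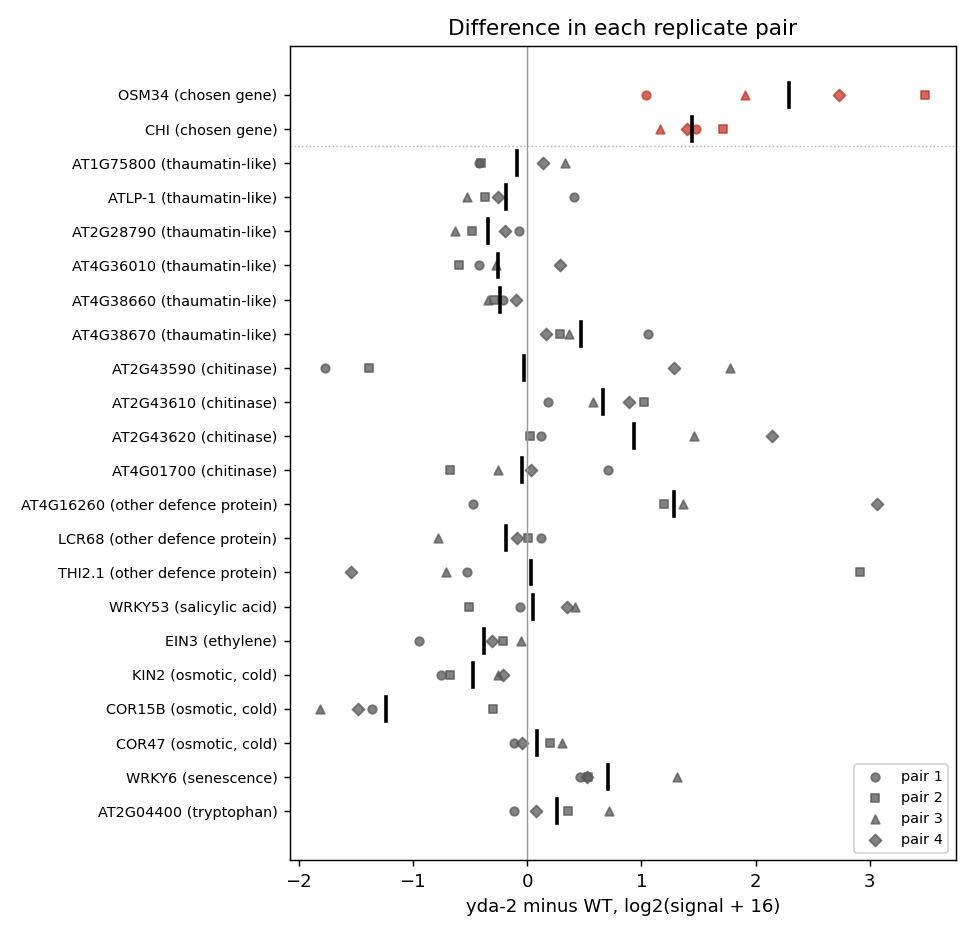
Difference between yda-2 and WT in log2(signal + 16) for OSM34, CHI and the 20 tested genes of the defence and stress lists. Each marker is 1 replicate pair and each black bar the mean of 4 pairs. OSM34 and CHI lie right of 0 in every pair, from 1.04 to 3.48 and from 1.16 to 1.72, while the means of the listed genes run from -1.24 (COR15B) to 1.29 (AT4G16260).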

How the data were processed

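Total RNA of 4 yda-2 and 4 WT samples was hybridized to Affymetrix AtGenome1 arrays, and the authors deposited 1 linear signal intensity per probe set and array. Per the labels, the authors scaled the average signal of each array to 500; the labels name no summary software. The average of each array without 2% of values at each end lay between 500.4 and 500.9.

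Array controls, 50 probe sets, were not tested. Signals were used as log2(signal + 16), which understates differences of dim probe sets. The 4788 probe sets whose signal averaged 100 or more were tested two-sided by a linear model with moderated variances and an intensity trend (limma 3.58.1, functions lmFit and eBayes, under R 4.3.3). P-values were adjusted over all of them by Benjamini-Hochberg. The fit was first tested on simulated data. Figures used matplotlib 3.10.9.

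Groups and replicate numbers came from the titles. Deviations of same-numbered arrays from their group means correlated at 0.596, 0.296, 0.324 and 0.577. Same-numbered arrays also lie in the same array set by signal range, which can raise these values, so they do not settle pairing by number. In 6 of 8 cases the partner with an equal number was the closest match by correlation. The numbers were taken to pair the arrays, although the labels do not state it, and results by pair or block rest on this choice. The fit without the block is given first. Precision is limited by the number of arrays.

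The platform annotation gives 3794 of the other probe sets 1 gene, 70 several and 4383 none. Symbols were updated through gene identifiers for 3784. Lists use 1 probe set per gene, the brightest. The text names every tested gene of the thaumatin-like, chitinase and other secreted defence lists, up to 4 genes by smallest p of each other list, and the 5 genes most correlated with each of OSM34 and CHI. Neighbouring genes were added after the values were seen. OSM34, CHI and the lists were chosen with earlier results of these data known. Alternatives covered pseudocounts, filters, normalization, eBayes options, array weights, the block and leaving out arrays or pairs.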

Additional observations from a re-analysis of the deposited data

Results flagged for a closer look

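In 44 groups of 4 arrays, those of OSM34, CHI and the 20 tested listed genes in each genotype, 1 had an array far from the others, where chance gives about 1 in 20. That was WRKY6 in WT replicate 1, at a signal of 515.6 against 256.8 for the next array. The check was made on linear signals, not on the log2 values used in the fits, and can differ between these scales.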

How the results depend on the processing

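The size of the OSM34 and CHI differences was recomputed under the settings given here and in the report. Their choice as genes with groups that do not overlap fixes the direction on leaving out arrays or pairs, so it says nothing about stability. Leaving out 1 array gave 1.81 to 2.65 for OSM34 and 1.28 to 1.58 for CHI, and leaving out 1 pair in the blocked fit gave 1.89 to 2.71 and 1.35 to 1.53. Pseudocounts of 1 and 64 gave OSM34 2.51 and 1.86, and CHI 1.48 and 1.33. Array weights gave 2.14 and 1.30, and with the replicate block, added after the data were seen, 2.04 and 1.41. The within-set values in the report were also added then. The block left both fold changes unchanged, as it must when each replicate number holds an array of each genotype.

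Over all probe sets, the 2 calls between genotypes became 0 with a pseudocount of 1, a filter of 200, median centring or quantile normalization, 1 with no filter, 11 with array weights, 9 with the replicate block and 41 with both. Leaving out 1 array gave 0 to 2, and leaving out 1 pair with the block 0 to 28, the highest without pair 2. Of the listed genes 0 passed in each setting but 1 with block and weights, and 0 to 1 on leaving out a pair, in both cases COR15B (adjusted p = 0.0102 without pair 2). The 397 calls between replicate numbers became 230 with no filter, 191 with quantile normalization, 138 with no trend and 883 with array weights, and 51 to 646 on leaving out a pair. Neither OSM34 nor CHI passed that test in any of these, with adjusted p from 0.276 and from 0.0563. The cause of these moves was not tested.

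Of 218 values of listed genes under settings that kept all arrays, 206 kept direction and side of the threshold. The filter, the eBayes options and the block used alone cannot change a fold change in this design. Direction was thus fixed in those settings, and the count overstates how stable it was. The sign turned for AT2G43590 (0.17 with a pseudocount of 64, 0.46 with array weights, 0.12 with weights and block), for THI2.1 (-0.061 with a pseudocount of 64, -0.012 with median centring, -0.33 with quantile normalization, -0.70 with weights, -0.72 with weights and block), for WRKY53 (-0.023 with quantile normalization), for AT1G75800 (0.060 with weights) and for AT4G01700 (0.17 with weights and block). On leaving out 1 array, and then 1 pair with the block, AT1G75800 ran from -0.25 to 0.0034 and -0.23 to 0.022, AT2G43590 from -0.97 to 0.67 and -0.62 to 0.56, AT4G01700 from -0.19 to 0.069 and -0.30 to 0.16, LCR68 from -0.58 to 0.18 and -0.29 to 0.012, THI2.1 from -0.69 to 0.44 and -0.93 to 0.56 and WRKY53 from -0.53 to 0.53 and -0.072 to 0.24. On leaving out 1 array AT4G36010 ran from -0.78 to 0.40 and COR47 from -0.027 to 0.24.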
